A study of Mus musculus with 6 samples.

Results

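The ATF4 branch of the integrated stress response was examined in mouse T cells after co-culture with the ovarian cancer cell line ID8. The genes were chosen by name, as every row of the gene table whose symbol was Atf4, Ddit3, Ddit4, Trib3, Asns, Chac1, Sesn2, Psat1, Phgdh or Atf5. These 10 genes took 11 of the 54532 rows, because Ddit3 was listed under 2 identifiers, and all 10 were among the 15874 genes tested. The second Ddit3 row (ENSMUSG00000116429) was listed at 0 in all 6 libraries and overlaps the first on the same strand, so it was not tested. The labels give 40 µM cisplatin for 3 libraries (cisplatin) and PBS for the other 3 (control), and by the study it was the ID8 cells that were treated, before the T cells were added. The T cells of both groups were isolated from the spleens of C57BL/6 mice aged 6 to 8 weeks. Both were kept with 10 ng/mL IL-2 and activated for 72 h with beads carrying anti-CD3 and anti-CD28 before co-culture, so no group of resting T cells and none without tumour cells was compared. The study calls the 3 libraries of a group biological replicates and independent samples. Separate mice or cultures are not named for them in the sources used here, so p-values measure the spread between these libraries.

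Cells under amino acid shortage, endoplasmic reticulum stress, viral RNA or haem deficiency phosphorylate the translation factor eIF2α, which lowers protein synthesis as a whole and raises translation of ATF4, a basic leucine zipper transcription factor. ATF4 then switches on genes for amino acid synthesis and uptake, for control of mTORC1 and for feedback or death, often through a composite C/EBP-ATF element in their promoters. In T cells the synthesis and uptake genes among them are known to supply the amino acids that activated cells need for growth. Much of ATF4 control is on translation of its mRNA, which transcript levels do not show.

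The promoters of the 10 genes were searched for the core letters of that element, because the genes are grouped by this factor. In the RefSeq promoter table of build GRCm38.p6, 250 bases before to 50 bases after each start, all 10 genes matched, with 12 promoters. The strict core TGATGCAA, searched on both strands, was in the promoter of 1 gene, Chac1, and in 0.895% of the 32851 promoters of all genes. The looser core TGATGNAA, which includes the strict matches, was in 3 of the 12 promoters (Chac1, Asns and Trib3) and in 3.97% of all promoters. The letters ACGTG, the core bound by hypoxia-inducible factors among others, were in 4 of the 12 (Ddit4, Asns, Ddit3 and the downstream promoter of Psat1) and in 19.6% of all. The stretches before the RefSeq start that hold the looser core in Asns and Chac1, and ACGTG in Ddit4, follow on the strand of the gene. The match is in capitals.
Asns, chr6:7693210-7693269, minus strand, match from position -23: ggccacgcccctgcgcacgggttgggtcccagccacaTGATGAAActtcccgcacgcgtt
Chac1, chr2:119351023-119351082, plus strand, match from position -193 as the reverse complement: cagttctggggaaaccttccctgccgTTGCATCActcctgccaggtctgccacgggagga
Ddit4, chr10:59951924-59951983, minus strand, match from position -187: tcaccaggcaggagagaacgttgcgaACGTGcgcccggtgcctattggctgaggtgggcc
The match in Trib3 started at position 15, behind the RefSeq start. Positions count from RefSeq starts, which differ from the gene limits of the expression table printed below. By those limits the Asns match lies inside the gene and the Trib3 match upstream of it. These are matches of letters and not measured binding sites.

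The 10 genes did not move as a group. Levels are FPKM, fragments scaled to gene length and library size, as the authors deposited them. The library size behind them was 1.03 to 1.05 times the reads on genes with cisplatin and 0.976 to 0.982 times in control. Scaling by the reads on genes would thus raise the cisplatin values relative to control. The comparison used limma on log2(FPKM + 0.1), with p-values adjusted over all tested genes, and a gene was called at an adjusted p-value under 0.05 with a change of at least 2-fold. On this scale Ddit4 and Trib3 were called lower with cisplatin-pretreated ID8 cells and 0 of the 10 were called higher, beside 12.8% of all tested genes called lower and 4.11% called higher. Without the 2-fold minimum, 4 of the 10 were lower (Ddit4, Trib3, Asns and Psat1) and 3 higher (Phgdh, Atf5 and Ddit3) at an adjusted p-value under 0.05, beside 29.0% and 27.5% of all tested genes. Atf4, Chac1 and Sesn2 did not pass. The 3 that were higher were so on the FPKM as deposited, and not on a scale centred on T-cell markers, which is given with the markers. The libraries of the 2 groups did not overlap for 7 of the 10, beside 64.2% of all tested genes. The median log2 fold change was -0.10 for the 10 genes and 0.03 for all tested genes.

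**Figure D1:**
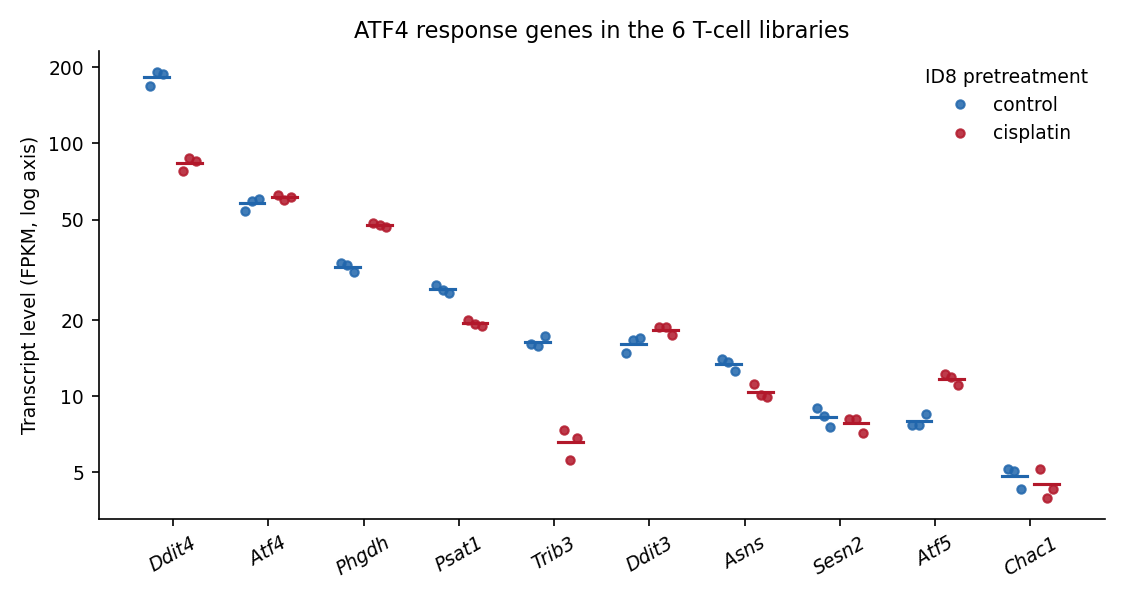
Transcript level (FPKM, log axis) of the 10 genes in each of the 3 control (blue) and 3 cisplatin (red) libraries, with points for libraries and bars for group means, ordered by the control mean. Ddit4 and Trib3 sit lower in all 3 cisplatin libraries and Phgdh and Atf5 higher on the FPKM as deposited (on the T-cell-centred scale they fell just under 0), while the points of Atf4, Sesn2 and Chac1 overlap between the groups.

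Of the genes that restrain growth and survival signals, Ddit4 was the most abundant of the 10 in both groups. Ddit4 (ENSMUSG00000020108, on chromosome 10 from 59949669 to 59951834 of GRCm38) encodes REDD1, an inhibitor of mTORC1 that is induced by ATF4, by hypoxia and by DNA damage. It had 78.1, 87.6 and 85.2 FPKM in the cisplatin libraries and 168, 192 and 189 FPKM in the control libraries. Every control library lay above every cisplatin library. The level was 2.19-fold higher in control, a log2 fold change of -1.13 (SE 0.06, limma adjusted p = 1.3e-05). Trib3 (ENSMUSG00000032715, chromosome 2 from 152337422 to 152344032) encodes a pseudokinase that binds ATF4 and AKT and acts as a feedback brake. Its levels were 7.36, 5.59 and 6.81 FPKM with cisplatin and 16.0, 15.8 and 17.3 FPKM in control. The groups lay apart here too, and the cisplatin libraries varied more in proportion to their mean (coefficient of variation 13.7%) than the control libraries (4.96%). The log2 fold change of Trib3 was -1.31 (SE 0.10, limma adjusted p = 5.6e-05), the largest fall of the 10. Sesn2 (ENSMUSG00000028893, chromosome 4 from 132492032 to 132510501), which encodes the leucine sensor Sestrin 2 upstream of mTORC1, had 8.09, 8.15 and 7.17 FPKM with cisplatin and 8.93, 8.35 and 7.57 FPKM in control. Its groups overlapped, with a log2 difference of -0.08 and a 95% interval from -0.28 to 0.11 (limma adjusted p = 0.42). A change in Sesn2 of the size seen in Ddit4 or Trib3 lies outside that interval, which holds for the FPKM as deposited. On a scale centred on T-cell markers Sesn2 was at -0.66 (limma adjusted p = 5.7e-04).

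The amino acid enzymes went in both directions on the FPKM as deposited. Centred on T-cell markers, Asns was at -0.94, Psat1 at -1.02 and Phgdh at -0.03 (limma adjusted p = 4.3e-05, 3.5e-06 and 0.65). Asns (ENSMUSG00000029752, chromosome 6 from 7675169 to 7693254), which makes asparagine, had 11.2, 10.1 and 9.88 FPKM with cisplatin and 14.0, 13.6 and 12.5 FPKM in control. All 3 cisplatin libraries were lower, a log2 fold change of -0.36 (SE 0.07, limma adjusted p = 0.0035). Phgdh and Psat1 encode consecutive enzymes of serine synthesis from a glycolytic intermediate, and they moved apart. Phgdh (ENSMUSG00000053398, chromosome 3 from 98313170 to 98339990) had 48.4, 47.6 and 46.5 FPKM with cisplatin and 33.5, 32.9 and 31.0 FPKM in control, a log2 fold change of 0.55 (SE 0.04, limma adjusted p = 3.4e-05). Psat1 (ENSMUSG00000024640, chromosome 19 from 15904678 to 15947337) had 19.9, 19.4 and 18.9 FPKM with cisplatin and 27.5, 26.4 and 25.7 FPKM in control, a log2 fold change of -0.45 (SE 0.04, limma adjusted p = 1.1e-04). Neither gene's groups overlapped. The ratio of the 2 levels within a library, which no scaling between libraries can change, was 0.409 ± 0.0030 (SD, n = 3) Psat1 per Phgdh with cisplatin and 0.815 ± 0.014 (SD, n = 3) in control. This pair was picked after its values were seen. Psph, the last enzyme of the path, had 6.84 ± 0.195 FPKM with cisplatin and 5.25 ± 0.606 FPKM in control (SD, n = 3 each), with a log2 fold change of 0.38 (limma adjusted p = 0.0094) that was -0.19 on a scale centred on T-cell markers (limma adjusted p = 0.07).

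Among the transcription factors, Atf4 itself differed little on the FPKM as deposited. Centred on T-cell markers it was lower, at -0.49 (limma adjusted p = 4.4e-05). Atf4 (ENSMUSG00000042406, chromosome 15 from 80255184 to 80257541) had 62.5, 59.5 and 61.4 FPKM with cisplatin and 54.3, 59.1 and 60.3 FPKM in control. The groups overlapped, with a log2 difference of 0.08 and a 95% interval from -0.03 to 0.19 (limma adjusted p = 0.19). Voom of limma on the rebuilt reads scales by the reads on genes. There Atf4 passed the threshold, at a log2 fold change of 0.16 (voom adjusted p = 0.0033). Its rebuilt reads did not overlap between the groups, at 4653 to 4767 per cisplatin library and 3841 to 4365 per control library. Ddit3 (ENSMUSG00000025408, chromosome 10 from 127290774 to 127296288) encodes CHOP, a partner and target of ATF4 that is tied to cell death under prolonged stress. It had 18.7, 18.8 and 17.4 FPKM with cisplatin and 14.8, 16.7 and 16.9 FPKM in control. The groups did not overlap, but the highest control and the lowest cisplatin library lay close together. The log2 fold change was 0.18 (SE 0.06, limma adjusted p = 0.047). It missed the threshold without cisplatin replicate 1 (limma adjusted p = 0.12), cisplatin replicate 2 (0.13), control replicate 1 (0.095) or control replicate 2 (0.059). Atf5 (ENSMUSG00000038539, chromosome 7 from 44812256 to 44816658), a relative of ATF4 linked to the mitochondrial stress response, had 12.2, 11.9 and 11.04 FPKM with cisplatin and 7.65, 7.70 and 8.49 FPKM in control. Every cisplatin library was higher, a log2 fold change of 0.56 (SE 0.06, limma adjusted p = 3.4e-04). Centred on T-cell markers, Ddit3 was at -0.39 and Atf5 at -0.02 (limma adjusted p = 7.9e-04 and 0.80). Ddit3 overlaps Mars and the low Gm4189 (0.808 against 0.483 FPKM), and Atf5 overlaps Nup62, on the other strand. Strand-aware counting is not stated in the sources used here, so reads of these partners cannot be told apart. Mars had a log2 fold change of 0.13 and Nup62 of 0.21.

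Chac1 (ENSMUSG00000027313, chromosome 2 from 119351229 to 119354381), which encodes an enzyme that degrades glutathione and is a sensitive ATF4 and CHOP target, was the least abundant of the 10 in both groups. It had 5.15, 3.96 and 4.30 FPKM with cisplatin and 5.17, 5.07 and 4.30 FPKM in control. The ranges of the 2 groups lay over each other, with a log2 difference of -0.12 and a 95% interval from -0.40 to 0.17 (limma adjusted p = 0.44). On a scale centred on T-cell markers Chac1 was at -0.69 (limma adjusted p = 0.0027). Its rebuilt reads were 215 to 273 per cisplatin library and 216 to 254 per control library, for which counting error alone gives a coefficient of variation of 6.47%. The libraries varied by more than that, 13.7% with cisplatin and 9.83% in control.

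Ordered by level, which FPKM allows because it is per length, the 10 genes ran in control from Ddit4 through Atf4, Phgdh, Psat1, Trib3, Ddit3, Asns, Sesn2 and Atf5 to Chac1. With cisplatin the order was Ddit4, Atf4, Phgdh, Psat1, Ddit3, Atf5, Asns, Sesn2, Trib3 and Chac1. Library ranges of neighbours overlapped for Trib3 with Ddit3 and for Sesn2 with Atf5 in control, and for Atf5 with Asns and for Sesn2 with Trib3 with cisplatin. Ddit4 was 3.16 ± 0.074 times Atf4 in control and 1.37 ± 0.11 times with cisplatin (SD of the within-library ratio, n = 3 each). Trib3 was at 0.283 ± 0.014 of Atf4 in control and 0.108 ± 0.012 with cisplatin. The ratios of Asns, Psat1, Phgdh and Atf5 to Atf4 also lay apart between the groups, with log2 differences of -0.44, -0.53, 0.47 and 0.48. Those of Chac1 and Sesn2 overlapped. For Ddit3 (0.10) the lowest cisplatin ratio (-1.8117) and the highest control ratio (-1.8129) all but met on the log2 scale. The share of all genes whose ratio to Atf4 lies apart was not counted. The 3 genes closest to Atf4 across the 6 libraries were Klhdc2, Gm6563 and Tram2, with Pearson r of 0.99, 0.99 and 0.98 on log2(FPKM + 0.1) among 8421 genes. With 6 libraries in 2 groups that share their cultures' conditions, this is a description only.

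The libraries held transcripts of several cell types, whose balance differed between the groups, although the T cells had been purified with a pan-T-cell kit. All 22 T-cell markers were higher with cisplatin (median log2 fold change 0.58), and their summed level was 3222 to 3293 FPKM per cisplatin library and 2049 to 2173 FPKM per control library. Tcf7, the most abundant of them, had 501.4 ± 9.21 and 318 ± 5.02 FPKM (SD, n = 3 each). Of 23 ID8 markers (keratins, mesothelial and mesenchymal genes), 18 were tested and 17 called lower (median log2 fold change -2.50), with sums of 252 to 261 FPKM with cisplatin and 1709.6 to 1787 FPKM in control. Krt19 led that list, with 52.9 ± 1.46 FPKM with cisplatin and 646 ± 18.1 FPKM in control (SD, n = 3 each). Krt7, Muc16, Lrrn4, Tagln and Igfbp5 of that list averaged under 0.5 FPKM. Of 10 B-cell markers 9 were higher and 1 lower at a limma adjusted p under 0.05 (sums 3638 to 3711 FPKM with cisplatin and 1701 to 1789 FPKM in control), led by the immunoglobulin gene Ighm (log2 fold change 1.17). Ighm made up most of these sums, with means of 3220.5 FPKM with cisplatin and 1432.7 FPKM in control. Centred on the T-cell markers, 4 of the 10 B-cell markers were lower and 4 higher (median log2 fold change 0.02). Of 11 tested myeloid markers 8 were higher and 2 lower (sums of all 13 listed, 161 to 184 FPKM with cisplatin and 125 to 131 FPKM in control), led by Lyz2 (1.54). Once centred, 6 myeloid markers were higher and 3 lower (median 0.775). Of 20 hypoxia targets other than Ddit4, 18 were lower and 16 called lower (median log2 fold change -2.14, sums 509 to 518 FPKM with cisplatin and 2443 to 2501 FPKM in control), led by the glycolytic gene Pgk1 (-2.51). No gene of these lists was at 0 in every library. The parts that these cells and targets have in the values of the 10 genes, or of the further response genes below, were not tested. Bulk RNA does not separate fewer cells of a type from a lower RNA content per cell.

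**Figure D2:**
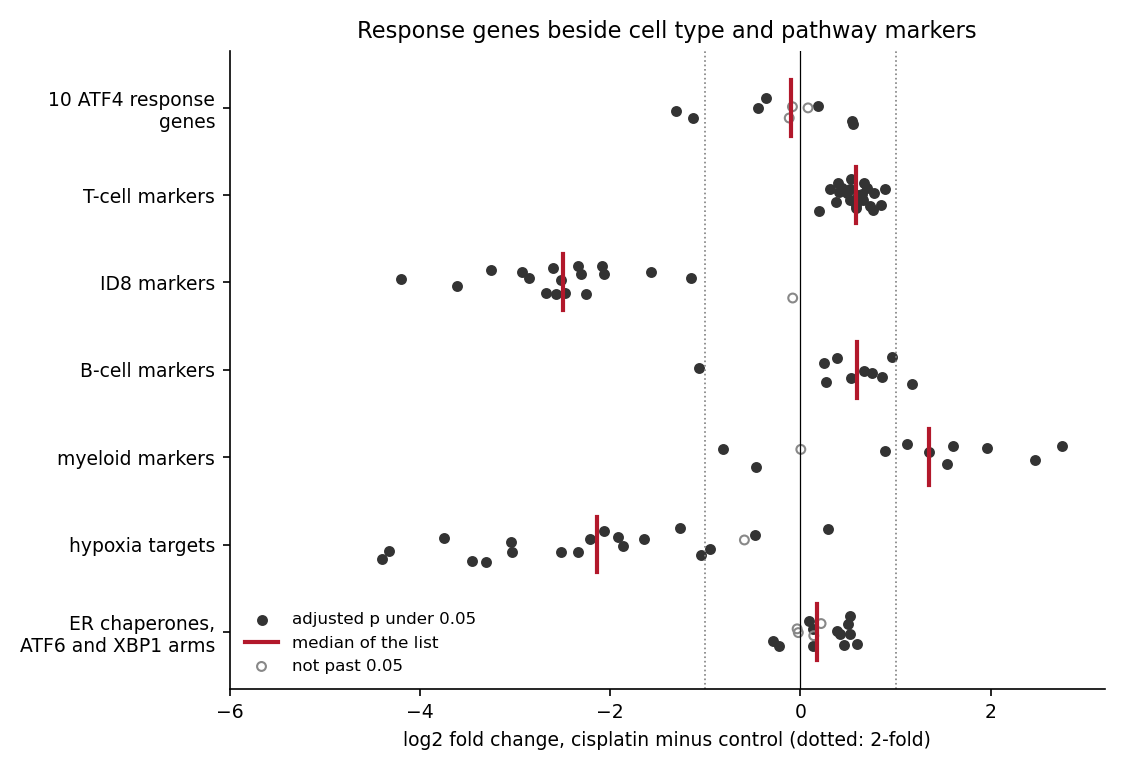
Log2 fold change (cisplatin minus control) of the tested genes of each list, filled where the limma adjusted p was under 0.05, with red bars for list medians and dotted lines at 2-fold. The 10 ATF4 response genes spread from -1.31 to 0.56, a range that overlaps those of the ID8, hypoxia and T-cell lists. Their median (-0.10) lay between the medians of the ID8 markers (-2.50) and hypoxia targets (-2.14) and that of the T-cell markers (0.58).

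Centring each library on the 22 T-cell markers, which assumes that these did not change, moved every gene by -0.57 on the log2 scale, all tested genes included. The direction of 4 of the 10 genes turned with this centring, and that of Chac1 and Sesn2, not past the threshold, with quantile normalization. The genes called over the whole table were 2034 lower and 653 higher as deposited, 3733 lower and 141 higher after the centring, and 1790 lower and 979 higher after quantile normalization. After the centring Phgdh (-0.03) and Atf5 (-0.02) no longer differed past the threshold (limma adjusted p = 0.65 and 0.80), and Atf4 (-0.49) and Ddit3 (-0.39) turned lower (limma adjusted p = 4.4e-05 and 7.9e-04). On that scale 8 of the 10 were lower at an adjusted p-value under 0.05 and 0 higher. Over all 15874 tested genes 10485 were lower and 754 higher at the same threshold. Read against the median of all tested genes, which the centring moves alike, the changes were -1.34 for Trib3, -1.16 for Ddit4, -0.47 for Psat1, -0.39 for Asns, -0.15 for Chac1, -0.11 for Sesn2, 0.15 for Ddit3, 0.52 for Phgdh and 0.53 for Atf5. These 9 kept their sign relative to that median under the 17 alternative settings, except that the filter of 5 FPKM left Chac1 untested. Atf4 ran from -0.06 to 0.09.

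**Figure D3:**
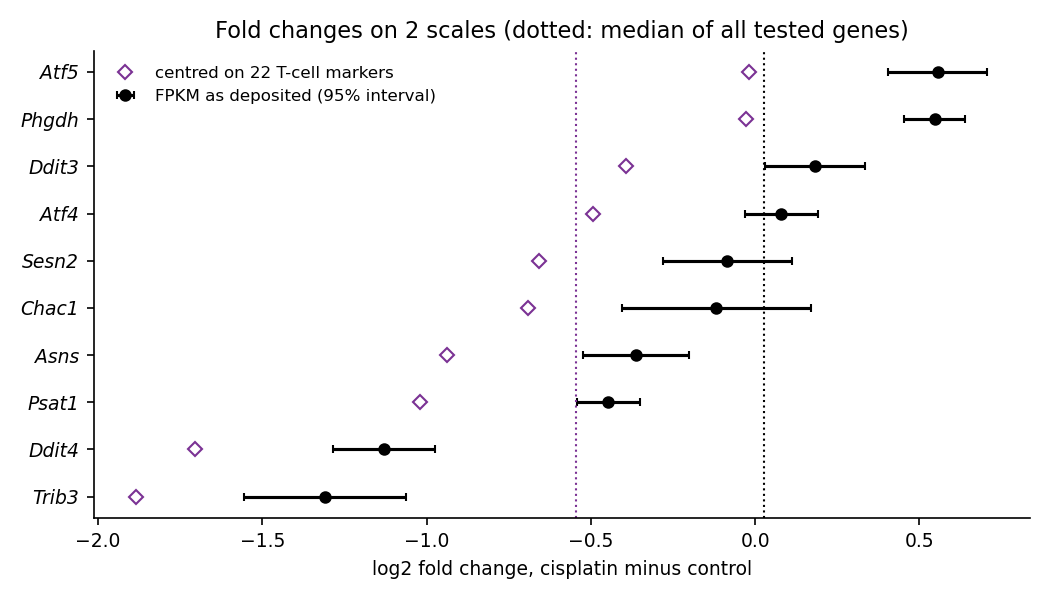
Log2 fold change of the 10 genes, cisplatin minus control, on the FPKM as deposited (black, with 95% intervals) and after centring on the T-cell markers (open diamonds), with dotted lines at the median of all tested genes on each scale. Trib3 and Ddit4 lie furthest below both medians and Phgdh and Atf5 above them, and Atf4 and Ddit3 change from positive to negative with the centring.

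The wider pathway was described with 93 further genes in 6 lists, of which 87 were tested. At a limma adjusted p under 0.05, 36 were lower and 31 higher, and 12 were called lower and 1 higher. After the centring on T-cell markers 74 of the 87 were lower and 5 higher at that threshold. Over all 15874 tested genes 10485 were lower and 754 higher on that scale. The even splits given here for single lists therefore hold for the FPKM as deposited. Upstream, 17 genes encode eIF2α kinases and their regulators, subunits of eIF2 and of its exchange factor eIF2B, or phosphatase subunits. Their median log2 fold change was 0.01, with 4 lower, 5 higher and 0 called, and all 17 were lower after the centring (median -0.57). As deposited, the kinases that sense different stresses went separate ways, and all 4 were lower past the threshold once centred. Eif2ak3, which encodes the endoplasmic reticulum kinase PERK, rose from 12.1 ± 0.426 to 15.8 ± 0.447 FPKM (SD, n = 3 each), with a log2 fold change of 0.37 (limma adjusted p = 4.1e-04) that was -0.20 after the centring. Eif2ak4, the amino acid sensor GCN2, fell from 6.62 ± 0.330 to 4.97 ± 0.468 FPKM (SD, n = 3 each, log2 fold change -0.41, limma adjusted p = 0.0054). Eif2ak2, the double-stranded RNA sensor PKR, had a log2 fold change of -0.32 (limma adjusted p = 5.1e-04). Eif2ak1, the haem-regulated kinase, did not pass as deposited (log2 difference -0.06, 95% interval -0.15 to 0.03) and was at -0.63 after the centring. Ppp1r15a, which encodes the stress-induced phosphatase subunit GADD34, did not pass as deposited either (-0.02, 95% interval -0.13 to 0.10), and was at -0.59 after the centring.

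Downstream, the 16 targets with roles in transcription and feedback held the largest falls. Of 14 tested, 10 were lower, 2 higher and 6 called lower, with a median log2 fold change of -0.44, and after the centring 12 were lower and 0 higher. Vldlr, a lipoprotein receptor, went from 7.39 ± 0.0943 to 0.584 ± 0.0746 FPKM (SD, n = 3 each, log2 fold change -3.46, limma adjusted p = 9.0e-07). Nupr1, a stress-induced chromatin protein, went from 27.9 ± 0.742 to 3.01 ± 0.465 FPKM (SD, n = 3 each, log2 fold change -3.18), and Gadd45a, a growth arrest gene, from 17.3 ± 0.610 to 3.35 ± 0.685 FPKM (SD, n = 3 each, log2 fold change -2.35). The others called, named after their values were seen, were Stc2 (-1.85), the translation repressor gene Eif4ebp1 (-1.64) and Cebpb (-1.46). The ID8 markers had a median log2 fold change of -2.50, and the part of ID8 cells in these falls was not tested. Atf3, an early factor of the same response, did not pass (6.55 ± 0.491 against 6.40 ± 0.149 FPKM, SD, n = 3 each, 95% interval of the log2 difference -0.13 to 0.19), and was at -0.54 after the centring. Fgf21 and Adm2 were under the filter of 0.5 FPKM.

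The 11 amino acid transporter genes split into 5 lower and 5 higher as deposited and 8 lower and 2 higher after the centring, with 1 called as deposited, Slc6a9 (log2 fold change -1.06), a glycine transporter named after its values were seen. Slc7a5 and Slc1a5, which carry large neutral amino acids and glutamine, were picked in the same way. They had log2 fold changes of 0.89 and 0.77 (limma adjusted p = 5.1e-06 and 1.3e-06), and of 0.31 and 0.19 after the centring. Of 12 tested enzymes of serine and folate metabolism and related steps, 5 were lower and 5 higher as deposited, and 8 lower and 2 higher after the centring. Mthfd1l, a mitochondrial folate enzyme, went from 38.8 ± 1.17 to 13.8 ± 0.848 FPKM (SD, n = 3 each, log2 fold change -1.48, limma adjusted p = 1.5e-06), and Shmt1, the cytosolic serine hydroxymethyltransferase, from 3.81 ± 0.199 to 7.76 ± 0.742 FPKM (SD, n = 3 each, log2 fold change 1.005, limma adjusted p = 7.7e-05). Shmt1 fell under 2-fold without cisplatin replicate 1 (0.93) or control replicate 2 (0.96), and with the centring (0.43). The mitochondrial counterparts Shmt2 and Mthfd2, picked after their values were seen, had log2 fold changes of 0.71 and 0.65, and of 0.14 and 0.07 after the centring. As deposited, the serine enzymes of this list (Psph, Shmt1 and Shmt2) were all higher, so it did not repeat the split of Phgdh and Psat1. The genes lower past the threshold were Got1, Mthfd1l, Pck2, Gpt2 and Aldh1l2.

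The 21 cytosolic aminoacyl-tRNA synthetase and tRNA export genes, which charge and carry tRNAs, had a median log2 fold change of 0.09, with 10 higher and 5 lower as deposited. After the centring 20 were lower and 1, Wars, higher (median -0.48). The gene called was Dars (aspartate, log2 fold change -1.004, limma adjusted p = 1.7e-05), which fell under 2-fold without cisplatin replicate 1 (-0.99), cisplatin replicate 2 (-0.96) or control replicate 2 (-0.98). Among 12 tested family relatives of the 10 genes, 7 were lower, 4 higher and 3 called lower as deposited, and 9 lower and 0 higher after the centring. Cebpd and Cebpa, which encode C/EBP factors, had log2 fold changes of -3.02 and -2.89, and Trib1, a relative of Trib3, went from 9.44 ± 0.609 to 4.52 ± 0.183 FPKM (SD, n = 3 each, log2 fold change -1.04, limma adjusted p = 2.1e-05). Sesn1 and Sesn3, relatives of Sesn2 picked after their values were seen, had log2 fold changes of 0.53 and 0.52 as deposited, and of -0.04 and -0.06 after the centring.

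**Figure D4:**
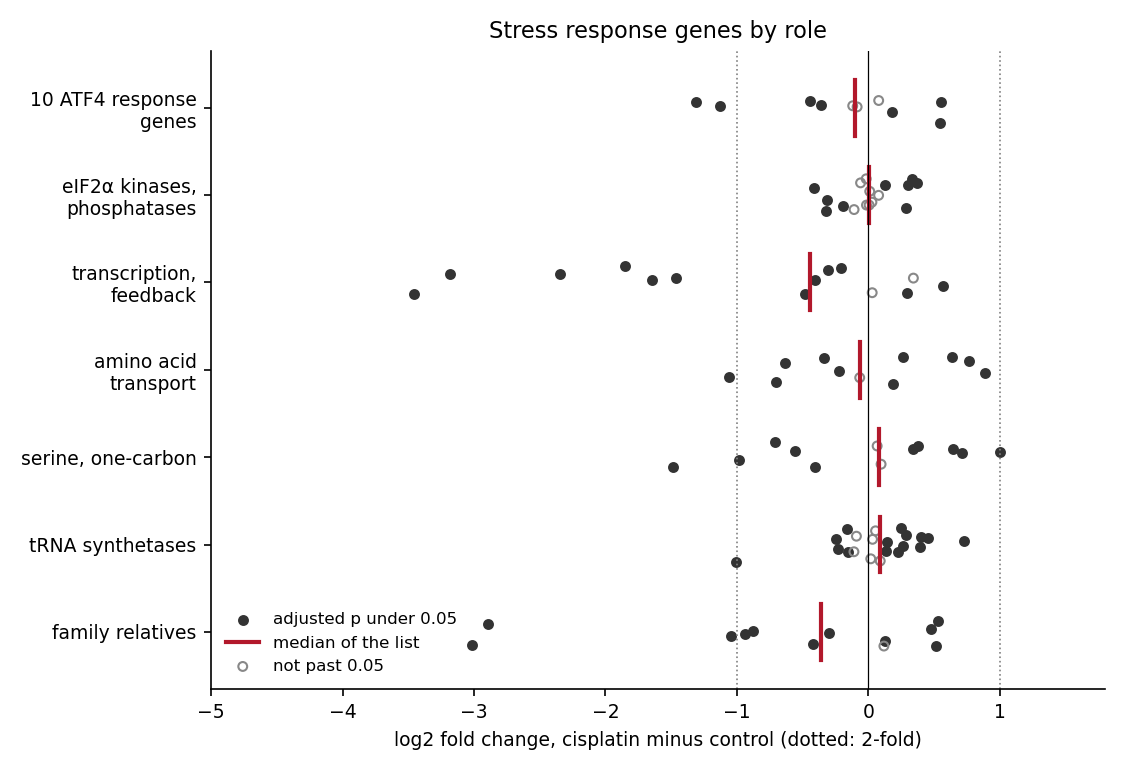
Log2 fold change (cisplatin minus control) of the tested genes of the response, by role, filled where the limma adjusted p was under 0.05, with red bars for list medians and dotted lines at 2-fold. The list of transcription and feedback genes reaches -3.46 and has the lowest median (-0.44), while the eIF2α list stays between -0.41 and 0.37 as deposited.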

How the data were processed

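RNA sequencing of mouse T cells gave 6 libraries, grouped by the sample titles. The authors deposited FPKM values per gene. The submitters' processing notes name fastp, HISAT2 2.0.5, featureCounts 1.5.0-p3 and mm10, whereas the paper's methods name LifeScope 2.5.1, and which made the table is not known. Coordinates equalled GENCODE M21 (GRCm38) for 98.3% of shared genes. The table held 0 columns of other samples.

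FPKM times gene length was a whole multiple of 1 step per library (100% of values above 0 within 0.1 of a read). The reads rebuilt in this way numbered 30606569 to 32169496 per library, and intervals for counts cover counting error only. Replicates differed by more than sampling noise (chi-square per degree of freedom 5.35 to 6.44). Genes averaging 0.5 FPKM or more were fitted with lmFit and eBayes (trend = TRUE) of limma 3.58.1 (R 4.3.3) on log2(FPKM + 0.1), a scale that understates changes of low genes. Thresholds followed the study (adjusted p-value 0.05, Benjamini-Hochberg, 2-fold). The fitting steps were tested on simulated reads with as many genes raised as lowered, which does not test the scaling between the groups. Figures used matplotlib 3.10.9.

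The genes, lists and tests were chosen with earlier results of these data known. All 10 genes are named. Of each further list, up to 3 falls and 3 rises are named among called genes that reach 5 FPKM in either group, with the eIF2α kinases, Ppp1r15a and Atf3 always, the most abundant gene of each marker list, the 3 genes most like Atf4 and others where marked. The 17 alternatives were pseudocounts of 1 and 0.01, other filters (none, 5 FPKM), quantile, median-of-ratios, TPM and T-cell-centred scaling, no variance trend, voom, each replicate left out and the replicate number as a block.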

Additional observations from a re-analysis of the deposited data

How the results depend on the processing

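The calls of Ddit4 and Trib3 held in all 17 alternatives, with log2 fold changes from -1.70 to -1.05 and from -1.88 to -1.18. Centring on the T-cell markers raised the count of genes lower at an adjusted p-value under 0.05 from 4 to 8 of the 10, lowered the count of higher ones from 3 to 0, and gave a median of -0.675. It turned Atf4 (-0.495), Ddit3 (-0.392), Phgdh (-0.028) and Atf5 (-0.019) to the negative side. These shifts follow from its construction, which subtracts the same amount from every gene. Over all tested genes 10485 were lower and 754 higher on that scale at an adjusted p-value under 0.05. Quantile normalization, which moved the median of all tested genes to 0.16, gave a median of 0.058, with Chac1 at 0.068 and Sesn2 at 0.048, neither past the threshold, and the cause was not tested. Ddit3 missed the threshold under no filter, TPM, no variance trend and the replicate block (limma adjusted p = 0.086, 0.059, 0.084 and 0.081). Over all tested genes, the called ones went from 2034 lower and 653 higher to 1451 and 311 with a pseudocount of 1. With voom they were 2423 and 1127, and after the centring 3733 and 141. At a mean of 5 FPKM they were 903 and 242 of only 8422 tested. Of the further response genes, 20 were called after the centring, 20 lower and 0 higher, against 13 (12 and 1) as deposited. The count called higher was 0 with a pseudocount of 1 or TPM, 2 with voom, and 0 to 1 with a library left out (0 without cisplatin replicate 1 or control replicate 2). Dars, Slc6a9 and Trib1 fell under 2-fold with a pseudocount of 1 and with quantile normalization. With voom Dars (-0.93) and Trib1 (-0.98) did so too.

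Same-numbered libraries did not deviate together (correlations of 0.023, -0.063 and -0.021 between deviations from the group means), no cisplatin library and only control replicate 1 among the control libraries correlated best with its own number, and the numbers were not taken as pairs. With the replicate block, 4 of the 10 genes were lower and 2 higher, and 13 further genes were called. Chac1 had the fewest reads of the 10, 215 in its lowest library.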

Other observations

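The chaperone and degradation genes that the ATF6 and XBP1 arms of the unfolded protein response control were measured beside the PERK and ATF4 arm. Of 16 genes, 10 were higher and 2 lower at a limma adjusted p under 0.05, and 0 were called, with a median log2 fold change of 0.18 that was -0.40 after centring on the T-cell markers, where 12 were lower and 0 higher. Calr, the most abundant of them, had a log2 fold change of 0.13 (limma adjusted p = 0.011) that was -0.44 after the centring. Hspa5, the endoplasmic reticulum chaperone BiP, had 111 ± 1.18 FPKM with cisplatin and 136 ± 2.01 FPKM in control (SD, n = 3 each), which is a log2 fold change of -0.29 (limma adjusted p = 1.2e-04). Creld2, an endoplasmic reticulum stress gene, had 38.6 ± 2.75 and 25.6 ± 0.471 FPKM (SD, n = 3 each), which is a log2 fold change of 0.59 as deposited and of 0.02 after the centring. Herpud1, which ATF4 and ATF6 both control, differed by 0.57 on the log2 scale as deposited and by -0.0014 once centred. Hspa5, Creld2 and Herpud1 were named after their values were seen.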
